A study of Mus musculus with 46 samples.

Results

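The 10 genes described here encode acute phase proteins, the plasma proteins whose output by the liver shifts during inflammation. They were taken by symbol from the gene tables: Saa1, Saa2, Saa3, Hp, Orm1, Orm2, Lcn2, Crp, Apcs and Hpx, which are 10 of the 55487 genes listed for each library. Each symbol occurred at 1 gene identifier. All 10 passed the filter on low counts. Their RNA was followed in 13 mouse livers, part of a series of 46 libraries that also holds pancreatic islets, whose title asks how signals from mitochondria to the nucleus bear on the identity of metabolic tissues. The livers fall into 3 groups by the genotype in the labels, control (n = 6), Mfn DKO (n = 4) and Tfam KO (n = 3). The descriptions of all 3 groups, controls included, carry the letters AAV, a viral vector, so the vector is shared by the groups as far as the labels say. What the vector carried, its promoter, and the age, sex and strain of the mice are not given in the labels. The replicates are labelled as biological, with nothing further on how the animals were raised or paired.

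The acute phase response is a switch in hepatocyte secretion. Interleukin-6 and its relatives act through gp130 receptors, JAK kinases and STAT3, while interleukin-1 and tumour necrosis factor act through NF-kB, and C/EBP factors take part in both arms. Positive acute phase proteins are secreted more and negative ones, such as albumin and transthyretin, less. In mice the serum amyloids A and serum amyloid P component (Apcs) are strong responders, whereas C-reactive protein (Crp), which dominates the human response, responds weakly. Tfam packages mitochondrial DNA and is a factor for its transcription, and the mitofusins Mfn1 and Mfn2 fuse the outer membranes of mitochondria.

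On GRCm38 the genes lie in a few clusters. Saa3, Saa1 and Saa2 share a stretch of 42315 bases on chromosome 7, where Saa1 (chr7:46740497-46742980, minus strand) and Saa2 (chr7:46751790-46754313, plus strand) run apart from starts 8810 bases from each other. Orm1 (chr4:63344560-63348163) and Orm2 (chr4:63362449-63365878) lie on the plus strand of chromosome 4, with Orm3 (chr4:63356162-63359511) between them. The pentraxins Crp (chr1:172698055-172833031, plus strand) and Apcs (chr1:172893961-172895041, minus strand) are adjacent protein-coding genes on chromosome 1. Saa3 lies at chr7:46711998-46715700, Hpx at chr7:105591613-105600137, Lcn2 at chr2:32384633-32388252 and Hp at chr8:109575128-109579172, all on the minus strand. Only Crp was overlapped by another annotated gene, the pseudogene Gm38051, which lies within its gene model without touching its exons. The longest coding transcripts of Saa1 and Saa2 were 94.4% identical over 606 aligned bases, and those of Orm1 and Orm2 were 91.0% identical over 775. How reads were divided between such near-identical genes is not stated, so the split within each pair is uncertain.

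RefSeq promoter windows (GRCm38.p6) were found for 8 of the 10 members, with no entry for Hp or Orm1. The 250 bases before the annotated start are shown for 2 pairs, because Saa1 and Saa2 kept the same order of livers in all 3 groups while Apcs was called in both knockouts and its neighbour Crp in neither. Saa1 (chr7:46742981-46743230, minus strand) and Saa2 (chr7:46751583-46751832, plus strand) are followed by Apcs (chr1:172895055-172895304, minus strand) and Crp (chr1:172697806-172698055, plus strand). Each reads 5′ to 3′ towards the gene, and capitals mark matches, on either strand, to a motif named after the lines.
Saa1: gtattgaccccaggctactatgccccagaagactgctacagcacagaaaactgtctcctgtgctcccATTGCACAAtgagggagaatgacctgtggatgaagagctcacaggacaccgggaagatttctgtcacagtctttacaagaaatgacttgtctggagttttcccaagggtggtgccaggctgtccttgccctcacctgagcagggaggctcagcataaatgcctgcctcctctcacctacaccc
Saa2: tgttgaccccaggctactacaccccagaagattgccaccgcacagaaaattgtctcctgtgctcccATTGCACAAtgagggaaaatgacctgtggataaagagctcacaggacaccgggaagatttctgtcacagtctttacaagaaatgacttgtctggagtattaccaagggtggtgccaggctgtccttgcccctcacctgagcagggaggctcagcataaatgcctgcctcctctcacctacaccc
Apcs: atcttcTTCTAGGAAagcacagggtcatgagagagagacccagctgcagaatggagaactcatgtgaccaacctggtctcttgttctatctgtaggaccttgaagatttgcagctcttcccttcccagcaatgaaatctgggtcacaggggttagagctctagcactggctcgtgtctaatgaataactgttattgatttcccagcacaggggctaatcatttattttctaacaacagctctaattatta
Crp: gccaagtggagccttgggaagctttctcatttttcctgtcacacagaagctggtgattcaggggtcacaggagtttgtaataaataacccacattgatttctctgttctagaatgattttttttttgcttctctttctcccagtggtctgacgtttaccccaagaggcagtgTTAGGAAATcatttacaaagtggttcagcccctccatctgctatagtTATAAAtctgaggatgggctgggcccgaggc
The motifs below were searched on both strands of the 300-base windows that run from 250 bases before to 50 bases after the start. The C/EBP motif TTNNGNAAT matched the Saa1 window 183 bases and the Saa2 window 184 bases before the start, in both as ATTGCACAA, and the Crp window once, 78 bases before the start. It also matched the Orm2 window once, and 11.5% of the 32851 RefSeq windows held a match. The STAT3 motif TTCNNNGAA matched only Apcs among the 8 windows, 244 bases before the start, against 8.30% of all windows. The TATA box TATAAA matched Crp and Orm2, against 13.6% of all windows. The NF-kB motif and the C/EBP-ATF motif TGATGNAA matched none of the 8 windows, against 20.7% and 3.97% of all windows. None of the 5 motifs matched the windows of Saa3, Lcn2 and Hpx. No 2 matches overlapped. The 250 bases of Saa1 and Saa2 were 95.6% identical over 249 aligned bases, and those of Crp and Apcs 66.4% over 143. A match of letters is a description and not a binding site.

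Total counts per liver ran from 41961114 to 56894510. Levels of 1 gene are given as CPM, the count scaled to library size, on library sizes scaled by TMM, and levels of different genes are compared only as the authors' TPM, which also divides by transcript length. The targeted genes followed the labels: Tfam was at 14.7 ± 1.42 CPM (SD, n = 3) in Tfam KO and 58.9 ± 4.02 (n = 6) in control livers. In Mfn DKO livers Mfn1 was at 20.2 ± 4.30 CPM (n = 4) against 80.8 ± 7.58 in controls, and Mfn2 at 38.1 ± 5.35 against 157 ± 28.4. One library stood apart. Tfam KO replicate 2 had a summed level of 8 hepatocyte markers of 4932 CPM, against 15805 to 30224 in the other 12 livers, a summed level of 12 neutrophil markers of 34.7 CPM, against 4.18 to 16.6 in the others, and the largest TMM factor, 1.43. The members' values in Tfam KO against control are therefore given with and without it. Xist was at 380 to 788 CPM in 7 livers (control 3, 4 and 5, Mfn DKO 2 and 4, Tfam KO 2 and 3) and at most 0.705 CPM in the other 6. In bulk tissue, fewer cells of a type and less RNA per cell cannot be told apart.

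In control livers the order of the 10 transcripts by mean TPM was Hpx (6215), Hp (4926), Orm1 (1548), Crp (281), Apcs (217), Saa1 (183), Saa2 (55.8), Orm2 (49.4), Lcn2 (10.6) and Saa3 (8.32). Saa1 overlapped both neighbours in that order, since it varied over 21.8-fold between the lowest and the highest control in CPM. Apcs ranked 5 in the controls, 3 in Mfn DKO livers with a mean of 2460 TPM and 2 in Tfam KO livers with 2548 TPM. The 10 genes together took between 0.30% of all counts, in Tfam KO replicate 2, and 2.01%, in Mfn DKO replicate 4.

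**Figure D1:**
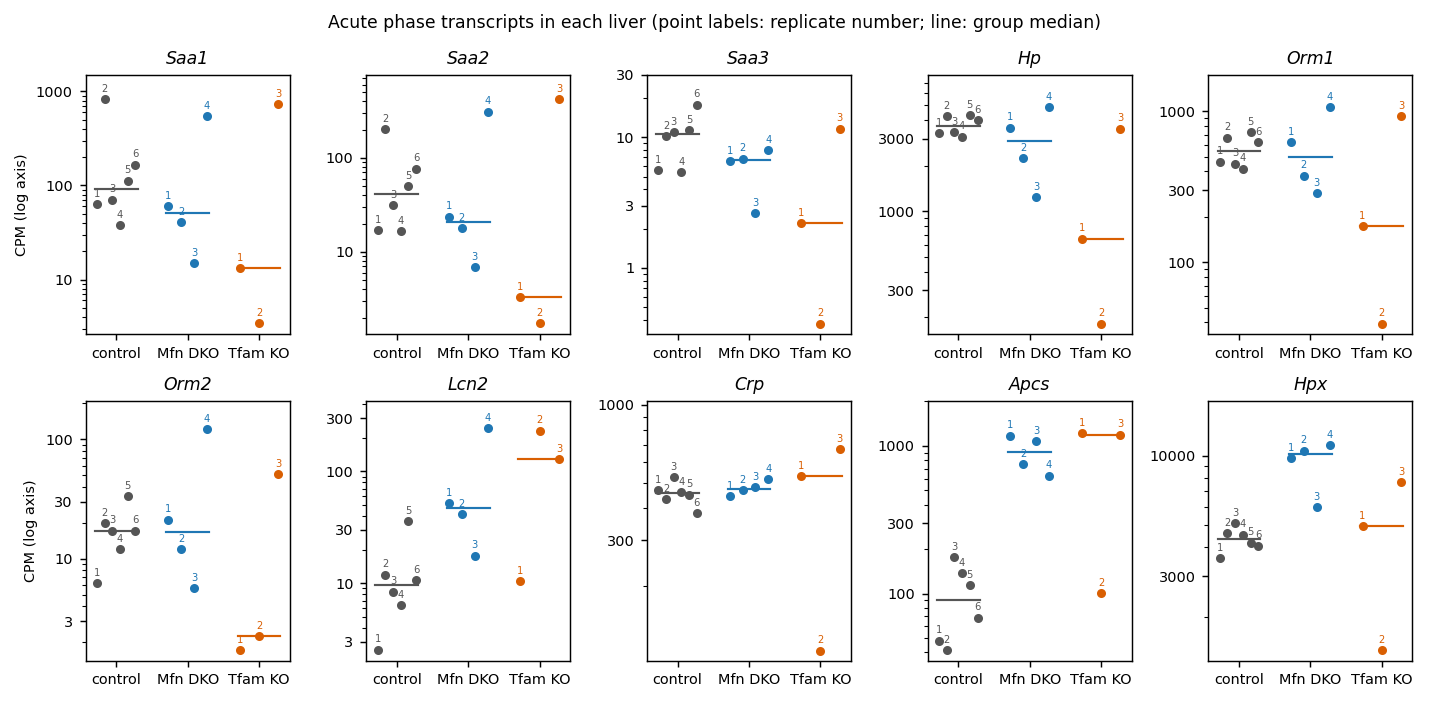
CPM of each acute phase transcript (log axis) in every liver, by group, with points numbered by replicate and a line at the group median. Apcs in the 4 Mfn DKO livers, at 628 to 1172 CPM, lies above all 6 controls, while Saa1 and Saa2 each have 1 liver in every group at over 2 times the next.

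Of the 10 members, 1 was called in Mfn DKO against control livers and 2 in Tfam KO against control livers, where called means an adjusted p of at most 0.05 in the fit over all 17024 genes tested. The background was 9.87% of genes called in Mfn DKO (5.23% higher and 4.64% lower) and 29.3% in Tfam KO (18.1% higher and 11.3% lower), so neither count stands above its background. Apcs was called in both, and higher by 9.28-fold in Mfn DKO. Lcn2 was called in Tfam KO, a call that rested on replicate 2, and missed the threshold in Mfn DKO (adjusted p = 0.0577). No member was called lower in either comparison. The median log2 fold change of the members was 0.26 in Mfn DKO, against 0.02 over all genes, and 0.08 in Tfam KO, against 0.03. The 2 comparisons share the 6 control livers.

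**Figure D2:**
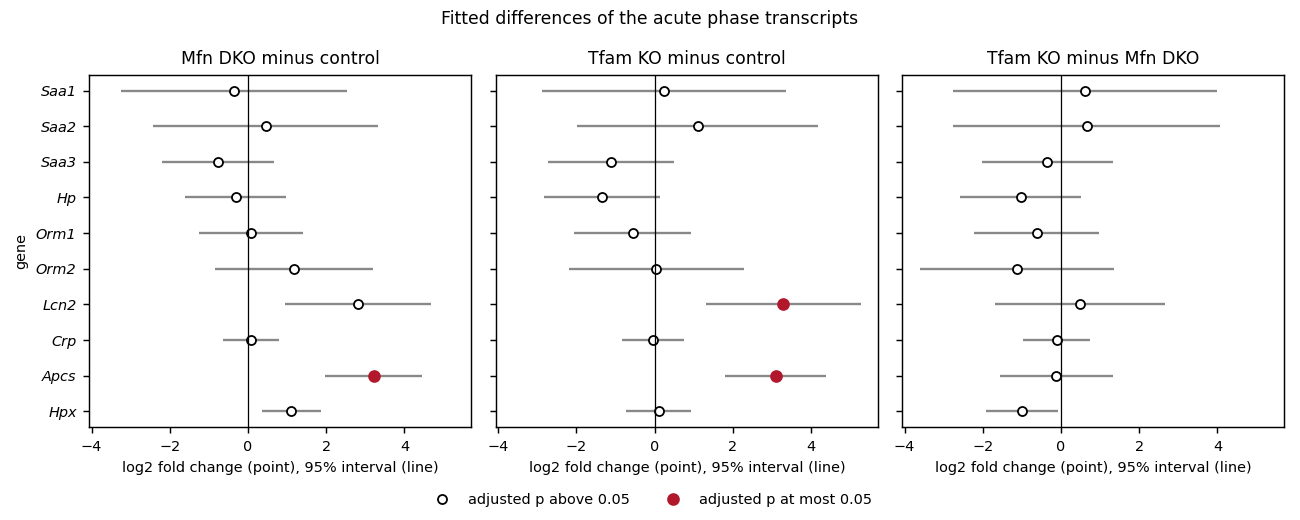
Fitted log2 fold change of each member (point) with its 95% interval (line) in the 3 comparisons, with filled points for an adjusted p of at most 0.05. Apcs is filled in both comparisons with the controls and Lcn2 in that of Tfam KO, and the intervals of Saa1 and Saa2 are the widest in each panel.

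Of the pentraxins, Apcs was called and Crp was not. Apcs encodes serum amyloid P component, a pentameric lectin that binds DNA, chromatin and amyloid fibrils and is made by hepatocytes. In control livers it ran from 41.5 CPM through a median of 91.0 to 176 CPM. In Mfn DKO livers 1 to 4 it was at 1172, 755, 1073 and 628 CPM, and in Tfam KO livers 1 to 3 at 1215, 101 and 1190 CPM. Every Mfn DKO liver lay above every control, as did Tfam KO livers 1 and 3, while Tfam KO replicate 2 lay inside the control range. The fitted log2 fold change in Mfn DKO was 3.21 (SE 0.58, 95% interval 1.97 to 4.46, adjusted p = 0.00588), and Apcs was called in all 13 fits that left out 1 liver. In Tfam KO it was 3.10 (SE 0.60, interval 1.80 to 4.39, adjusted p = 0.00353), and without replicate 2 it was 3.62 (adjusted p = 0.000561). With the replicate number as a block, Apcs kept its direction but was called in neither comparison. In that fit 0.993% of all genes were called in Mfn DKO and 2.32% in Tfam KO.

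Apcs also differed within the controls by Xist. The 3 controls with high Xist had 113 to 176 CPM and the 3 with low Xist 41.5 to 68.6 CPM. In Mfn DKO the order was the other way, with 628 and 755 CPM in the 2 livers with high Xist and 1073 and 1172 in the 2 with low Xist. In both Xist classes all Mfn DKO livers lay above all controls. Fitted with the level of Xist as a term, the log2 fold change was 3.28 in Mfn DKO (adjusted p = 0.00627) and 3.12 in Tfam KO (adjusted p = 0.00437).

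Crp, the neighbour of Apcs and the other short pentraxin, binds phosphocholine on microbes and dying cells. It had one of the smallest spreads of the set. Control livers held 382, 454 and 526 CPM as lowest, median and highest, and Mfn DKO livers 1 to 4 held 443, 467, 482 and 515 CPM. Tfam KO livers 1 to 3 were at 531, 112 and 676 CPM, so that replicate 2 lay below every other liver and replicates 1 and 3 above every control. The log2 fold change was 0.07 in Mfn DKO (interval -0.65 to 0.80, adjusted p = 0.906) and -0.04 in Tfam KO (interval -0.84 to 0.75, adjusted p = 0.944). Without replicate 2 the latter was 0.42 (adjusted p = 0.0570), a change of sign.

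The scavengers of free haemoglobin and heme did not follow each other. Hpx encodes hemopexin, which binds heme. It ran from 3591 through 4363 to 5082 CPM in controls and stood at 9733, 10512, 5968 and 11134 CPM in Mfn DKO livers 1 to 4. All 4 Mfn DKO livers exceeded all 6 controls, a pattern found for 8.95% of genes tested in the higher direction and 10.3% in the lower direction. Apcs and Hpx were the only 2 members with it, both higher. For Hpx the log2 fold change of 1.10 (SE 0.35, interval 0.35 to 1.86) did not pass the threshold over all genes (adjusted p = 0.0638). It passed without Tfam KO replicate 2 (adjusted p = 0.00194) and without Tfam KO replicate 3 (adjusted p = 0.0253). Those 2 livers enter that comparison through the shared estimate of the spread, the filter, the TMM factors and the adjustment. Without them, in that order, 19.5% and 16.5% of all genes were called in Mfn DKO, against 9.87% with all livers. Tfam KO livers 1 to 3 held 4958, 1427 and 7658 CPM, on either side of the control range, with a log2 fold change of 0.11 (interval -0.73 to 0.94, adjusted p = 0.863), and of 0.54 without replicate 2 (adjusted p = 0.127).

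Hp encodes haptoglobin, which binds free haemoglobin for uptake by macrophages through Cd163. Control livers were tightly grouped, at 3109, 3640 and 4295 CPM as lowest, median and highest. Mfn DKO livers 1 to 4 were at 3557, 2229, 1245 and 4836 CPM, with livers 2 and 3 below all controls and liver 4 above them. Tfam KO livers 1 to 3 were at 659, 181 and 3514 CPM, the first pair below every other liver of the study. The log2 fold change was -0.32 in Mfn DKO (interval -1.60 to 0.97, adjusted p = 0.763). In Tfam KO it was -1.35 (interval -2.84 to 0.14, adjusted p = 0.157), and -0.82 without replicate 2 (adjusted p = 0.338).

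The serum amyloids A varied most. These small apolipoproteins ride on high-density lipoprotein in plasma, and Saa1 and Saa2 come mainly from hepatocytes. Saa1 ran from 37.6 through 91.8 to 822 CPM in controls, was at 60.8, 41.0, 15.0 and 542 CPM in Mfn DKO livers 1 to 4, and at 13.2, 3.43 and 737 CPM in Tfam KO livers 1 to 3. In each group 1 liver held several times the level of the next, namely control 2, Mfn DKO 4 and Tfam KO 3. The same 3 livers were highest for Saa2, with 16.7, 40.9 and 203 CPM as lowest, median and highest control. It was at 23.7, 17.8, 6.92 and 310 CPM in Mfn DKO livers 1 to 4 and at 3.28, 1.74 and 418 CPM in Tfam KO livers 1 to 3. The order of the livers was identical for Saa1 and Saa2 in all 3 groups, and Saa2 made up 19.8% to 36.4% of the counts of the pair.

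No difference of Saa1 or Saa2 between groups exceeded the spread within them. In Mfn DKO the log2 fold change was -0.37 for Saa1 (interval -3.26 to 2.53, adjusted p = 0.885) and 0.45 for Saa2 (interval -2.44 to 3.33, adjusted p = 0.856). In Tfam KO it was 0.24 for Saa1 (interval -2.87 to 3.36, adjusted p = 0.917) and 1.10 for Saa2 (interval -1.99 to 4.19, adjusted p = 0.592). Without Tfam KO replicate 2 the Tfam KO values were 0.82 for Saa1 (adjusted p = 0.743) and 1.68 for Saa2 (adjusted p = 0.454). The intervals are wide enough to hold changes of several fold in both directions. The signs rested on single livers: without Mfn DKO replicate 4 the Saa2 value was -2.05 (adjusted p = 0.424), and without Tfam KO replicate 3 the Saa1 value was -4.70 (adjusted p = 0.0505) and the Saa2 value -4.74 (adjusted p = 0.0405).

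Saa3, a form made by macrophages and fat as well as liver, was scarce. It ran from 5.38 through 10.5 to 17.7 CPM in controls, with 6.54, 6.84, 2.62 and 7.93 CPM in Mfn DKO livers 1 to 4 and 2.20, 0.377 and 11.6 CPM in Tfam KO livers 1 to 3. The groups overlapped. Its log2 fold change was -0.77 in Mfn DKO (adjusted p = 0.479) and -1.12 in Tfam KO (adjusted p = 0.276), and -0.57 in Tfam KO without replicate 2 (adjusted p = 0.562).

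The orosomucoids are lipocalin-type carriers of drugs and lipids, also called alpha-1-acid glycoproteins. Orm1 ran from 419 through 546 to 727 CPM in controls, stood at 626, 376, 286 and 1063 CPM in Mfn DKO livers 1 to 4, and at 173, 39.3 and 931 CPM in Tfam KO livers 1 to 3. Orm2 ran from 6.27 through 17.2 to 33.6 CPM in controls, with 21.2, 12, 5.73 and 121 CPM in Mfn DKO and 1.74, 2.26 and 51.1 CPM in Tfam KO. For both genes Mfn DKO 4 was above every control and Mfn DKO 3 below every control. Orm1 had log2 fold changes of 0.07 in Mfn DKO (adjusted p = 0.955) and -0.55 in Tfam KO (adjusted p = 0.576). Orm2 had 1.18 in Mfn DKO (adjusted p = 0.437) and 0.05 in Tfam KO (adjusted p = 0.977), and the former was -0.46 without Mfn DKO replicate 4 (adjusted p = 0.796). Without Tfam KO replicate 2 the Tfam KO values were -0.02 for Orm1 (adjusted p = 0.986) and 0.58 for Orm2 (adjusted p = 0.763).

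Lcn2 encodes lipocalin-2, which withholds iron from bacteria by binding their siderophores and is made by hepatocytes, epithelia and neutrophils. Control livers held 2.56, 9.59 and 35.9 CPM as lowest, median and highest. Mfn DKO livers 1 to 4 held 52.5, 41.3, 17.7 and 243 CPM, and Tfam KO livers 1 to 3 held 10.4, 231 and 130 CPM. Mfn DKO 1, 2 and 4 and Tfam KO 2 and 3 exceeded every control, while Mfn DKO 3 and Tfam KO 1 lay within the control range. The log2 fold change was 2.81 in Mfn DKO (SE 0.87, interval 0.93 to 4.68, adjusted p = 0.0577) and 3.29 in Tfam KO (SE 0.92, interval 1.31 to 5.27, adjusted p = 0.0186).

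The Lcn2 calls turned on single libraries. Without Tfam KO replicate 2 the Tfam KO value was 2.47 (adjusted p = 0.105), the only one of the 13 fits without 1 liver in which it was not called. Without that same library the Mfn DKO value was 2.81 with an adjusted p of 0.0347, and without Mfn DKO replicate 4 it was 1.54 (adjusted p = 0.27). The sum of the 12 neutrophil markers was highest in Tfam KO replicate 2, the library with the second-highest Lcn2. There S100a9 was at 12 CPM, against 0.898 to 4.69 in the other 12 livers. In Mfn DKO livers the sum of the 12 neutrophil markers was 5.24 to 16.6 CPM, against 4.18 to 16.0 in controls, and none of the 11 tested markers was called. Of the 11, 2 were called higher in Tfam KO (Cxcr2 and Mmp8), against 18.1% of all genes, and none without replicate 2. Over the 13 fits without 1 liver, Cxcr2 was called in 7 and Mmp8 in 3. All 11 had a positive log2 fold change in Tfam KO (median 1.24), and 7 did in Mfn DKO (median 0.12). The neutrophil granule genes Mpo and Elane were low but highest in Tfam KO replicate 2. They were at 1.32 and 0.675 CPM there, against at most 0.452 and 0.431 in the other livers. Ltf, Csf3r and Ly6g of the same list were not highest in that library. They were at 1.69, 3.64 and 0.0260 CPM there, against up to 2.31, 6.90 and 0.151 CPM in other livers. The part of neutrophils in the Lcn2 values was not tested.

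Direct comparison of the 2 knockouts found no called member. Tfam KO and Mfn DKO livers differed in 50 of the 17024 genes, a background of 0.294%, and by the DESeq2 Wald test none of the 10 members was called either. One member had an unadjusted p under 0.05, as did 3480 of the 17024 genes. It was Hpx, with a log2 difference of Tfam KO minus Mfn DKO of -1.0 (interval -1.93 to -0.07, adjusted p = 0.218). For Apcs the difference was -0.12 (interval -1.56 to 1.33, adjusted p = 0.935), and for Lcn2 0.48 (interval -1.69 to 2.66, adjusted p = 0.805). Without Tfam KO replicate 2 these differences were -0.56 for Hpx, 0.41 for Apcs and -0.34 for Lcn2, the last 2 with the other sign and none called. Without Tfam KO replicate 3, 24.0% of all genes and 5 members were called, the members lower in Tfam KO than in Mfn DKO, namely Saa3, Hp, Orm1, Orm2 and Hpx. Leaving the same library out of the comparison with controls gave 41.8% of all genes and 7 called members, Apcs and Lcn2 higher and Saa2, Saa3, Hp, Orm1 and Orm2 lower.

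Differences between livers of 1 group were large for most members. The pooled SD of log2 CPM within groups was 2.51 for Saa2, 2.43 for Saa1, 1.68 for Orm2 and 1.63 for Lcn2, against a median of 0.35 over all tested genes. These 4 genes stood at or above percentile 98.6 of all genes, and Saa3, Orm1, Apcs and Hp between percentiles 94.3 and 96.6. Crp (0.64) and Hpx (0.62) stood at percentiles 77 and 75.5. Within each knockout group the livers kept their rank for most members. Mfn DKO replicate 4 was the highest of its group for 9 of 10 members and replicate 3 the lowest for 8, and Tfam KO replicate 3 was the highest for 8 and replicate 2 the lowest for 8. Apcs was the exception in Mfn DKO, where replicate 4 held its lowest level and replicate 1 its highest. In Tfam KO, Lcn2 was highest in replicate 2 and Apcs in replicate 1. Among controls the order was mixed, with replicate 5 highest for 4 members and replicate 4 lowest for 5.

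**Figure D3:**
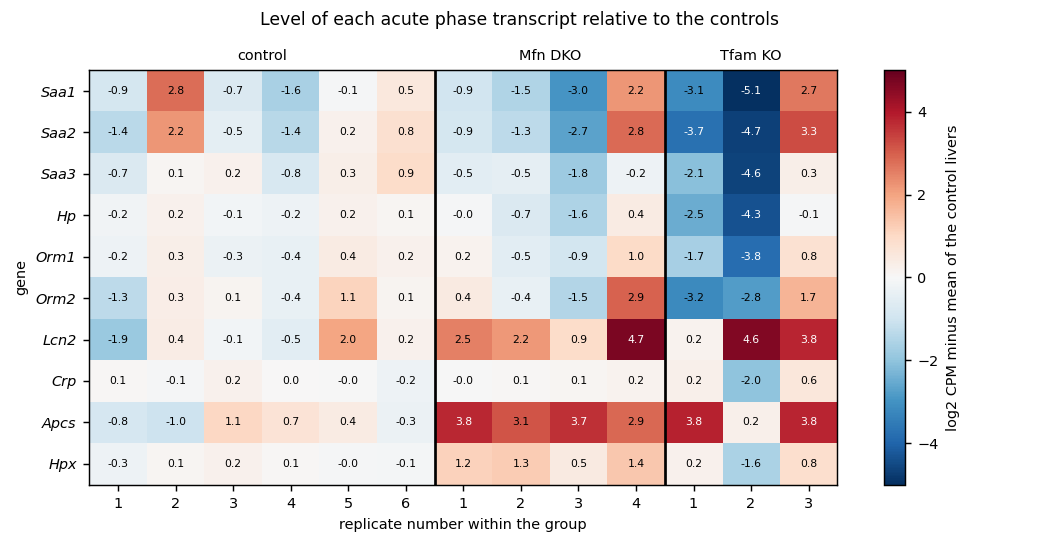
Log2 CPM of each member in each liver, less the mean of the 6 controls, with vertical lines between groups and red for higher. Mfn DKO replicate 4 and Tfam KO replicate 3 are high in most rows, Tfam KO replicate 2 is low in most rows, and Apcs is high in 6 of the 7 knockout livers.

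Likeness between genes was measured as the root mean square (RMS) difference of log2 CPM over the 13 livers after each gene was centred on its mean, where a smaller value is more alike. Among members the closest pairs were Hp and Orm1 (0.33), Saa1 and Saa2 (0.40), Hp and Saa3 (0.44) and Crp and Hpx (0.50). Among the 9848 other genes with a mean of at least 5 CPM, the nearest to Saa2 were Lrg1, a secreted leucine-rich glycoprotein and an acute phase protein itself (1.17), Ang (1.51) and Wfdc21 (1.51). Lrg1 was at 38.2 CPM in Mfn DKO 3 and 543 CPM in Mfn DKO 4, and at 23.0 CPM in Tfam KO 2 and 390 CPM in Tfam KO 3. The nearest to Orm2 were Fgl1 (0.67), Gbp2b (0.77) and Lrg1 (0.81). The nearest to Hp were Akr1d1 (0.36), Mx2 (0.39) and Hacl1 (0.41), and to Saa3 F7 (0.47), Akr1d1 (0.51) and AW112010 (0.52). The genes compared were read in the same 13 libraries, which differ in depth and composition, so the values describe and do not test.

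Apcs and Lcn2 had other neighbours. Nearest to Apcs were Serpina7, the thyroxine-binding globulin of plasma (0.75), Gpat3, an acyltransferase of glycerolipid synthesis (0.83), and Ighg2b, an immunoglobulin chain (0.85). Serpina7 ran from 33.9 to 66.4 CPM in controls and stood at 395, 505, 512 and 439 CPM in Mfn DKO livers 1 to 4 and at 321, 151 and 399 CPM in Tfam KO livers 1 to 3. Nearest to Lcn2 were Armcx4 (1.17), Itga6, an integrin subunit (1.18), and Igfbp1, a binding protein for insulin-like growth factors (1.23). These distances to Lcn2 are large beside those of Hp.

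The remaining positive acute phase genes mostly did not pass the test. Of 26 tested, 3 were called higher and none lower in Mfn DKO: Mt1 (log2 fold change 2.65), Mt2 (3.88) and Il1rn (1.51). Of all genes, 5.23% were called higher and 4.64% lower there. Leaving out 1 liver at a time, Mt2 and Il1rn were called in all 13 fits and Mt1 in 7, with values down to 1.89 (adjusted p up to 0.117). Mt1 and Mt2 encode metallothioneins, which bind zinc and copper, and Il1rn the interleukin-1 receptor antagonist. In Tfam KO 4 were called higher and 1 lower, against 18.1% and 11.3% of all genes. They were Mt2 (3.38), Cd14 (2.40), Mt1 (2.5) and Il1rn (1.03) higher, and the protease inhibitor Serpina1a (-1.62) lower. Il1rn is named there beyond the 4 with the smallest adjusted p. Without Tfam KO replicate 2, Cd14 was at 0.38 (adjusted p = 0.580) and Il1rn at 1.16 (adjusted p = 0.0611), Mt1 at 2.67, Mt2 at 3.51 and Serpina1a at -1.09, and the counts were 2 higher and 3 lower. In that fit 1474 of all 17317 genes tested were called higher and 1030 lower. Of the 13 fits without 1 liver, Il1rn was called in 6 and Serpina1a in 3. Cd14, a co-receptor for bacterial lipopolysaccharide, was at 44.9 CPM in that library and at 1.95 to 8.35 in the other 12. The median of the 26 was -0.11 in Mfn DKO and -0.66 in Tfam KO.

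Of the 10 negative acute phase genes, none was called in Mfn DKO, where the median was -0.25. An unadjusted p under 0.05 was found for 4 of them, and for 4704 of all 17024 genes. Of the 4, Ttr, Apoa1 and Igfals were lower and Ahsg was higher (0.80). In Tfam KO 4 were called lower: Ttr, the transthyretin gene (-1.35), Apoa1, the main protein of high-density lipoprotein (-1.63), Fetub (-0.71) and Igfals (-1.0). Of all genes, 11.3% were called lower there. Without replicate 2, 2 of the 10 were called lower, Ttr (-1.02, adjusted p = 0.00525) and Apoa1 (-1.17, adjusted p = 0.00651), with Fetub at -0.43 (adjusted p = 0.0994) and Igfals at -0.60 (adjusted p = 0.114). In that fit 1030 of all 17317 genes tested were called lower. Over the 13 fits without 1 liver, Ttr was called in 13, Apoa1 in 12, Fetub in 8 and Igfals in 1. With only the 2 groups compared, Apoa1, Fetub and Igfals were not called. Fetub and Igfals were also not called with total counts in place of TMM. Of 8 hepatocyte markers, 2 were called lower in Tfam KO (Cyp2e1 and Hpd), against 11.3% of all genes, and 1 had a positive log2 fold change. Cyp2e1 and Hpd were each called in 2 of the 13 fits without 1 liver. Neither was called with Xist as a covariate or with only the 2 groups compared. The summed level of the 8 was 4932 to 20544 CPM in Tfam KO against 23051 to 30224 in controls. Cyp2e1 was the largest part of that sum in controls, with a mean of 9469 CPM. The part of hepatocyte number in these values was not tested.

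Of the cytokines that drive the response, Il6 was too scarce to test, with 0 to 6 counts per liver. Il1b had a log2 fold change of 0.18 in Mfn DKO (adjusted p = 0.772) and 0.15 in Tfam KO (adjusted p = 0.789), and Tnf 0.78 (adjusted p = 0.388) and -0.12 (adjusted p = 0.906). Of 6 tested cytokines, Clcf1, a ligand of the gp130 family, was called higher in Mfn DKO (1.33) and in Tfam KO (2.01). In Mfn DKO that call held in 3 of the 13 fits without 1 liver, and in Tfam KO in all 13, with 1.26 without replicate 2. Lif, another gp130 ligand, was called higher in Tfam KO (5.73, adjusted p = 0.00150), with 25, 324 and 18 counts in livers 1 to 3 against 0 to 4 in the controls. The 324 counts are those of replicate 2, without which the value was 3.68 (adjusted p = 0.0102), and the DESeq2 Wald test gave no adjusted p for Lif. Of the 6 cytokines, 1 was called higher in Mfn DKO and 2 in Tfam KO, against 5.23% and 18.1% of all genes.

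Receptors were called in both directions. Lifr, the receptor subunit shared by Lif and its relatives, was called lower in Mfn DKO (-1.35, adjusted p = 0.0146) and in Tfam KO (-1.88, adjusted p = 0.00264, and -1.52 without replicate 2). It ran from 226 to 427 CPM in controls, 103 to 135 in Mfn DKO and 37.8 to 142 in Tfam KO. Tnfrsf1a, the main tumour necrosis factor receptor, was called higher in both (0.47 and 0.44). Il1rap, the accessory chain of the interleukin-1 receptor, was called lower (-1.51) and Ifngr1 higher (1.57) in Tfam KO, at -0.99 and 0.94 without replicate 2. Il1rap was called in 3 of the 13 fits without 1 liver, and neither with Xist as a covariate nor with only the 2 groups compared, while Ifngr1 was called in all 13. The interleukin-6 receptor chains were not called, Il6ra at -0.24 (adjusted p = 0.723) and -1.17 (adjusted p = 0.0673), and Il6st, which encodes gp130, at 0.34 (adjusted p = 0.168) and 0.06 (adjusted p = 0.814), in Mfn DKO and Tfam KO. In all, 1 receptor of 10 was called higher and 1 lower in Mfn DKO, against 5.23% and 4.64% of all genes. In Tfam KO 2 were called higher and 2 lower, against 18.1% and 11.3%. With 10 genes, these counts are near those shares.

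Of 14 kinases and transcription factors, Jak1 was called higher in Mfn DKO (0.51) and in Tfam KO (0.58). Jak2 (0.68) and Nfkb2 (0.63) were also called higher and Cebpa (-1.25) lower in Tfam KO, and Nfkb2 was not called without replicate 2 (adjusted p = 0.229). Without that library Jak2 was at 0.40 and Cebpa at -0.78, both called. Over the 13 fits without 1 liver, Jak2 was called in 13, Cebpa in 6 and Nfkb2 in 5. In all, 1 of the 14 was called higher in Mfn DKO, and 3 higher and 1 lower in Tfam KO. The shares of all genes were 5.23% higher and 4.64% lower in Mfn DKO, and 18.1% and 11.3% in Tfam KO. Stat3 was at 0.51 in Mfn DKO (adjusted p = 0.0727) and 0.12 in Tfam KO (adjusted p = 0.652), Cebpb at -0.26 (adjusted p = 0.490) and -0.32 (adjusted p = 0.367), and Cebpd at 0.05 (adjusted p = 0.908) and 0.46 (adjusted p = 0.161). Of 8 feedback targets, none was called in Mfn DKO, with 1 at an unadjusted p under 0.05, against 4704 of all 17024 genes. Nfkbia (-0.85) and Pim1 (-0.92) were called lower in Tfam KO, against 11.3% of all genes. Neither of them was called without replicate 2 (adjusted p = 0.0820 and 0.0569). Socs3, the inhibitor that STAT3 induces, was at -0.24 (adjusted p = 0.748) and -0.74 (adjusted p = 0.264). Among 14 receptors and partners of the acute phase proteins, only Hmox1 was called, higher in Mfn DKO (0.96) and in Tfam KO (1.43). Hmox1 encodes heme oxygenase-1, which breaks down the heme that hemopexin delivers, and it was called in all 13 fits without 1 liver in both comparisons, at 1.06 in Tfam KO without replicate 2. It ran from 18.2 to 28.3 CPM in controls, 33.3 to 56.8 in Mfn DKO and 48.6 to 92.1 in Tfam KO, with no overlap between either knockout and the controls. Among all genes, Tfam KO livers lay wholly above the controls for 10.7% and wholly below for 10.2%. None of the 10 members did either in Tfam KO.

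**Figure D4:**
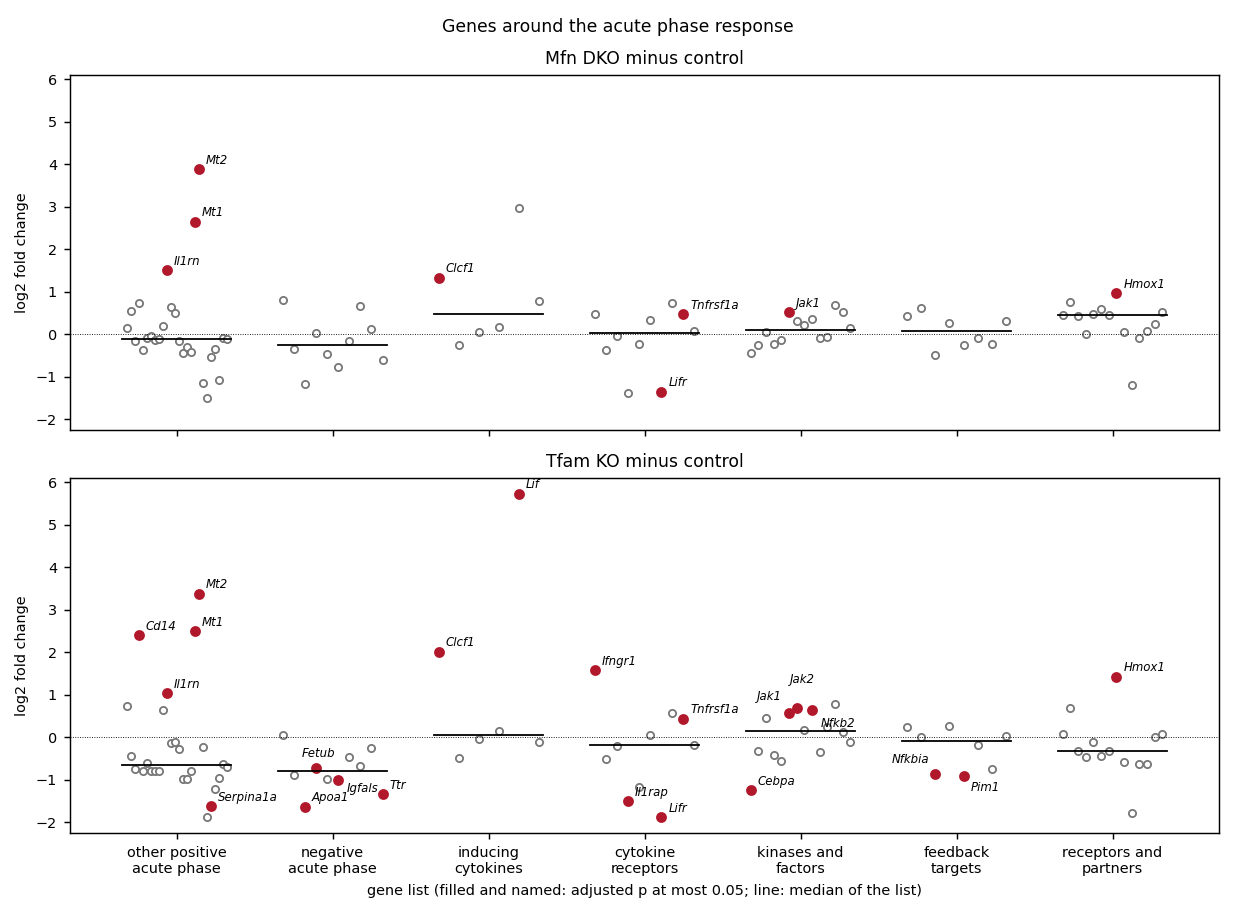
Log2 fold change of the tested genes of 7 lists around the acute phase response in Mfn DKO (top) and Tfam KO (bottom) against control livers, with filled and named points for an adjusted p of at most 0.05 and a line at each list's median. Mt1, Mt2, Il1rn, Clcf1, Tnfrsf1a, Jak1 and Hmox1 are filled above 0 and Lifr below 0 in both panels.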

How the data were processed

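RNA of 13 livers was read from the tables that the authors deposited, which give raw counts, TPM and CPM per gene, per the file headers. Per the labels' protocols, livers were flash frozen, and DNase-treated total RNA was read at both ends. The submitters' processing notes name STAR 2.6.1b, RSEM 1.3.1, featureCounts, DESeq2 and GRCm38, with no role or order, and the annotation is not given in the sources used here. Of the liver counts from 1 to 10, 66.2% were even, so a count is not always an independent fragment. The deposited CPM equalled the count over the library total, and the authors' TPM were used only to order genes. No 2 libraries were identical.

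Counts were fitted with edgeR 4.0.16 in R 4.3.3 (TMM, filterByExpr, quasi-likelihood F-test, 1 mean per group over the 13 livers, Benjamini-Hochberg adjustment over 17024 genes), as checked on simulated data. An SE is the log2 fold change over the square root of F, and 95% intervals are unadjusted and two-sided. p-values measure the spread between these livers, of which there are 3 to 6 a group. Members, lists and motifs were chosen with earlier results of these data known. The genes named are the members, the targeted genes, at most 4 per list by smallest adjusted p, the main cytokines, receptors and factors of the pathway, and the 3 genes most like a member. Identity was computed on GENCODE M21 transcripts with global alignment. Alternatives were DESeq2 1.42.0 (size factors and Wald test), other filters, each liver left out, a replicate block, Xist as a covariate, only the 2 groups compared, near-identical genes summed and, chosen after seeing the data, total counts in place of TMM and Xist together with leaving out Tfam KO replicate 2.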

Additional observations from a re-analysis of the deposited data

Results flagged for a closer look

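In 20 groups of 4 or 6 livers (10 members, control and Mfn DKO), the gap between the highest or lowest liver and its nearest neighbour was set against the range of the group. For values that follow a normal distribution, chance flags about 1 in 20 groups. The gaps were taken in CPM and not in log2 CPM, and high values stretch the CPM range, so that rate need not hold here. The members are also not independent of each other. The Tfam KO group, with 3 livers, was too small for this check. Mfn DKO replicate 4 stood far above the other 3 livers for 4 genes, Saa1 at 542 CPM (next 60.8), Saa2 at 310 CPM (next 23.7), Orm2 at 121 CPM (next 21.2) and Lcn2 at 243 CPM (next 52.5). It was not the lowest or highest by such a gap for the other 6 members. Control replicate 2 stood far above the other 5 controls for Saa1, at 822 CPM (next 167), and for Saa2, at 203 CPM (next 76.8). Control replicate 5 stood far above the other controls for Lcn2, at 35.9 CPM (next 12). Mfn DKO replicate 4 also held the highest summed macrophage markers of the 13 livers, 1471 CPM against 313 to 1107 in the others, and the part of this in its levels was not tested.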

How the results depend on the processing

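Over 23 alternatives, 204 of 230 member values kept their direction and their side of the threshold in Mfn DKO against control, 207 of 230 in Tfam KO against control and 210 of 230 in Tfam KO against Mfn DKO. Apcs kept its direction in both comparisons with controls throughout and its call everywhere except with the replicate block. Livers with the same number did not all deviate together (10 pairs, correlations from -0.343 to 0.35, 5 of them over 0.1). The sign followed Xist: pairs alike in Xist level were at 0.057 to 0.35, and pairs unlike in it at -0.343 to -0.033. Pairs with different numbers were not computed for reference, so whether the numbers mark a block was not tested. The replicate block gave 169, 395 and 6 called genes in the 3 comparisons, in that order, and 0, 0 and 0 called members, with Apcs at 3.39 (adjusted p = 0.0606) and 2.84 (adjusted p = 0.0614) and Lcn2 in Tfam KO at 4.03 (adjusted p = 0.0548). Under the block Saa2 turned to -0.29 in Mfn DKO, and Saa1, Saa2 and Orm2 to -0.36, -0.10 and -0.36 in Tfam KO. Of the calls named in the lists of other genes, those of Il1rn in both knockouts and of Lifr and Hmox1 in Tfam KO also held with the block.

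The DESeq2 Wald test called 2870 genes and 3 members in Mfn DKO and 1087 genes between the knockouts. Fitting only the 2 groups compared called 4338 genes and 3 members in Mfn DKO, 3228 genes in Tfam KO and 7 between the knockouts. The 3 members were Apcs, Lcn2 and Hpx. At least 10 counts in every liver left 27 genes between the knockouts. Total counts in place of TMM moved the median of all genes by 0.19, 0.43 and 0.24 log2 and the calls to 1653 higher and 356 lower, 7250 and 904, and 1140 and 86, against 891 and 790, 3073 and 1919, and 18 and 32 with TMM. That gave 8154 genes in Tfam KO, 1226 between the knockouts and 3 members in Mfn DKO, with Crp at 0.28 in Tfam KO and 0.00909 between the knockouts and Apcs at 0.00300 there. Near-identical genes summed gave -0.13 for the Saa pair in Mfn DKO and -0.53 for the Orm family in Tfam KO. Xist as a covariate called 2 members in Mfn DKO, with Saa2 at -0.40 there, Saa1 at -0.31 and Orm2 at -0.86 in Tfam KO, and Lcn2 at -0.13 between the knockouts. Together with leaving out Tfam KO replicate 2 it called 4608 genes and 3 members in Mfn DKO and 78 genes between the knockouts. There Saa2 was at -0.40 and Orm1 at -0.00348 in Mfn DKO, Orm2 at -0.35, Crp at 0.40 (adjusted p = 0.0334) and Lcn2 at 1.78 (adjusted p = 0.146) in Tfam KO, and Saa3 at 0.0707, Lcn2 at -0.77, Crp at 0.33 and Apcs at 0.34 between the knockouts. The cause of these shifts was not tested.

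Leaving out each of the 13 livers in turn gave these ranges. From 686 to 3379 genes and 1 to 3 members were called in Mfn DKO against control, and the values that changed sign ranged over Saa1 -2.47 to 0.86, Saa2 -2.05 to 1.22, Orm1 -0.40 to 0.30 and Orm2 -0.46 to 1.54. From 2504 to 7330 genes and 1 to 7 members were called in Tfam KO against control, and the values that changed sign ranged over Saa1 -4.70 to 1.47, Saa2 -4.74 to 1.87, Orm2 -3.16 to 0.59, Crp -0.51 to 0.42 and Hpx -0.46 to 0.54. From 24 to 4204 genes and 0 to 5 members were called between the knockouts, and the values that changed sign ranged over Saa1 -4.31 to 2.69, Saa2 -5.17 to 3.13, Saa3 -2.23 to 0.20, Orm2 -4.32 to 0.50, Lcn2 -0.34 to 1.74, Crp -0.57 to 0.34 and Apcs -0.49 to 0.41. The lowest counts in Tfam KO and the highest in Mfn DKO came without Tfam KO replicate 2, and the highest counts in Tfam KO and between the knockouts came without Tfam KO replicate 3. With 3 Tfam KO livers, the width of the intervals limits what could be detected for Saa1, Saa2 and Orm2.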

Other observations

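The islet libraries of the series were kept out of the comparisons above, and most acute phase transcripts were near 0 there. Saa2 and Orm1 had no count in any of the 14 Tfam or 19 Clec16a islet libraries. Saa1 reached at most 2 counts in a library, and Apcs at most 16. Hpx, the most abundant member in liver, was at 0.0712 to 0.278 CPM in the Tfam islets and at 0.161 to 0.772 CPM in the Clec16a islets, with CPM here on total counts. Lcn2 was the member with the highest islet level, up to 18.9 CPM in 1 Tfam KO library and up to 11 CPM in 1 control library, with medians of 0.180 and 0.0305 CPM. For no member did all knockout islets lie above all control islets in either experiment.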
